A study of Arabidopsis thaliana with 2 samples.

Results

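HAESA (AT4G28490) and QRT3 (AT4G20050) are genes of plant cell separation on chromosome 4 of Arabidopsis thaliana, and each lay under 1 of the 439 peaks in a chromatin immunoprecipitation sequencing (ChIP-Seq) study of the NAC transcription factor ATAF1. They are 2 genes with 2 peaks, chosen by the overlap column of the deposited list, which names them as "HAE" and "QRT3". That a peak overlaps each gene is therefore the choice itself and not a finding. The study used an anti-HA antibody on rosettes of Col-0 plants with a 35S:ATAF1-HA transgene, in which a broadly active viral promoter drives the tagged factor, and on those of wild-type Col-0, which lacks the tag. All plants were 5 weeks old and had grown at 21 °C with 8 h of light a day. Each genotype gave 1 library, so no value has a replicate and no difference between genotypes was tested. Reads are given once per peak, without the library they came from, and the depth of both libraries is unknown. With no RNA measured, the tissue could not be checked against its marker genes.

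Plants shed organs and release pollen by loosening the pectin-rich layer that joins neighbouring cells. In floral organ shedding, the secreted peptide IDA is bound by the leucine-rich repeat receptor kinases HAESA and HSL2 with SERK co-receptors, a MAP kinase cascade follows, and wall-degrading enzymes such as polygalacturonases are then made. QRT3 is a polygalacturonase that breaks down pectin around the pollen mother cell, so that the grains of a tetrad come apart. HAESA is thus a signalling gene of organ shedding and QRT3 an enzyme gene of pollen separation. Both are known mainly from flowers, HAESA from the abscission zones of floral organs and QRT3 from anthers, whereas the chromatin here came from rosettes.

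HAESA, the receptor, had a peak at chr4:14079907-14079963 (TAIR9), which was 56 bp long by the list's own length column. It held 121 reads, 54 forward and 67 reverse. The authors' false discovery rate (FDR), in general an estimate of the percentage of false peaks at a given stringency, was 2.40% and their p-value was 0. Few peaks of the list held fewer reads: 42 of the other 438 (9.59%, exact 95% binomial interval 7.00 to 12.7), while 7 held the same number. On chromosome 4 only 2 of the other 62 peaks held fewer. An FDR under 1% was reached by 51.5% of all peaks, and the HAESA peak was not among them. A higher FDR was given to 85 of the other 438 peaks (19.4%, 15.8 to 23.4). The other peaks are the whole list and not a sample, so intervals on such places are a yardstick only. They also leave out the counting error of the gene's own reads. The list ends at an FDR of 4.99% and at 78 reads, so these places hold only among listed peaks.

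QRT3, the enzyme, had a peak at chr4:10850496-10850540 (TAIR9), 44 bp long. It held 403 reads, 228 forward and 175 reverse, and the FDR was 0.179%, again with a p-value of 0. Here 401 of the other 438 peaks held fewer reads (91.6%, 88.5 to 94.0), and 299 had a higher FDR (68.3%, 63.7 to 72.6). The QRT3 peak was thus nearer the top of the list by reads than by FDR. Among peaks on protein-coding genes, 275 of the other 290 held fewer reads. A p-value of 0 was shared by 373 of the 439 peaks and does not set either gene apart.

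**Figure D1:**
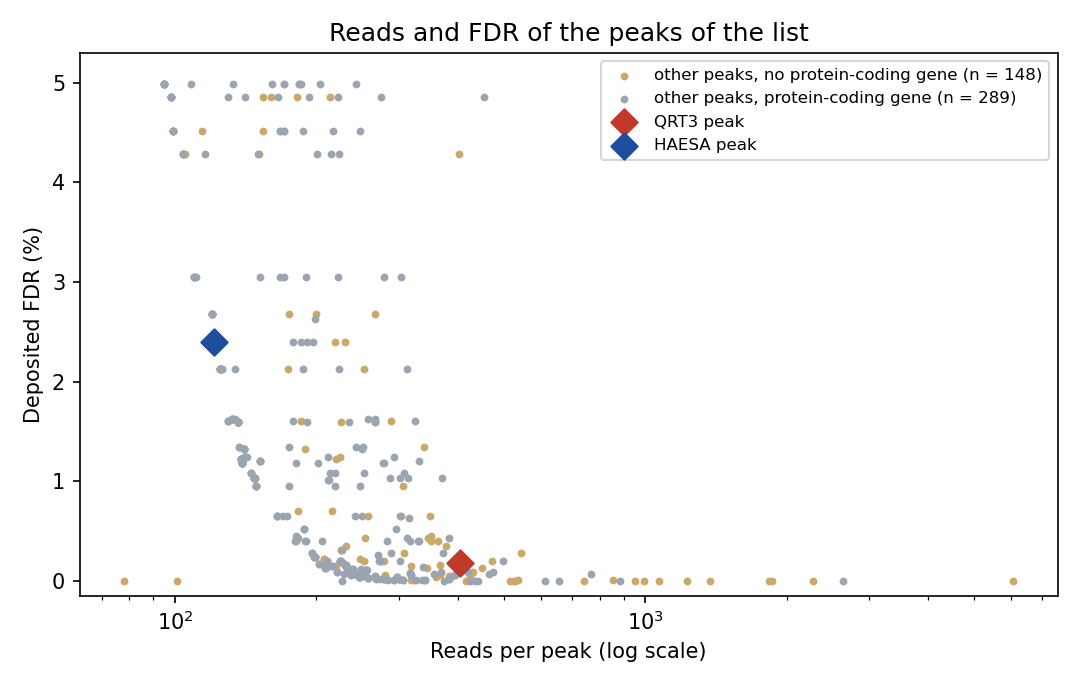
Reads per peak (log scale) against the deposited FDR in percent, with 1 point per peak of the list, coloured by whether a protein-coding gene is overlapped, and diamonds for both genes. The HAESA peak (121 reads, 2.40%) lies on the left edge of the points, and the QRT3 peak (403 reads, 0.179%) lies to the right of that edge.

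Set against each other, the peaks differed more in reads than in extent. QRT3 held 3.33 times the reads of HAESA (exact 95% interval 2.71 to 4.12, for counting error only), 4.22 times its forward reads and 2.61 times its reverse reads. The HAESA peak was the longer by 12 bp. Per base of peak length, QRT3 held 9.16 reads and HAESA 2.16, a ratio of 4.24. The median over all peaks was 5.28 reads per base, which lies between these values. Listed lengths ran from 0 to 759 bp and reads per base up to 883, so the listed length need not be the span the reads cover. The values per base are therefore not read densities. Both lengths were above the list's median of 40 bp and inside its quartiles of 27 and 58 bp. Shorter peaks numbered 245 of 438 for QRT3 (55.9%, 51.2 to 60.7) and 312 of 438 for HAESA (71.2%, 66.7 to 75.4). Reads were not corrected for local sequence or for the wild-type background, so the ratio compares peak totals and is not an occupancy.

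By strand, QRT3 held more forward reads and HAESA more reverse reads. Forward reads made up 56.6% of the QRT3 peak (exact 95% binomial interval 51.6 to 61.5) and 44.6% of the HAESA peak (35.6 to 53.9). The interval of HAESA, on 121 reads, included 50%, so its lean could not be told from none. That of QRT3, on 403 reads, did not include 50%. The forward share of QRT3 was higher by 11.9 percentage points (Newcombe 95% interval 1.81 to 21.7). These intervals cover counting error only. They treat reads as independent molecules, which could not be checked here, so they may be too narrow. An interval that leaves out 50% was found in 56.3% of all peaks, and one lying wholly above 50%, as for QRT3, in 23.2%. The strand imbalance, which is the gap between the strand counts divided by the total, was 0.132 for QRT3 and 0.107 for HAESA. Both were below the list's median of 0.165. A smaller imbalance was found in 181 of the other 438 peaks for QRT3 (41.3%, 36.7 to 46.1) and in 152 for HAESA (34.7%, 30.3 to 39.4).

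**Figure D2:**
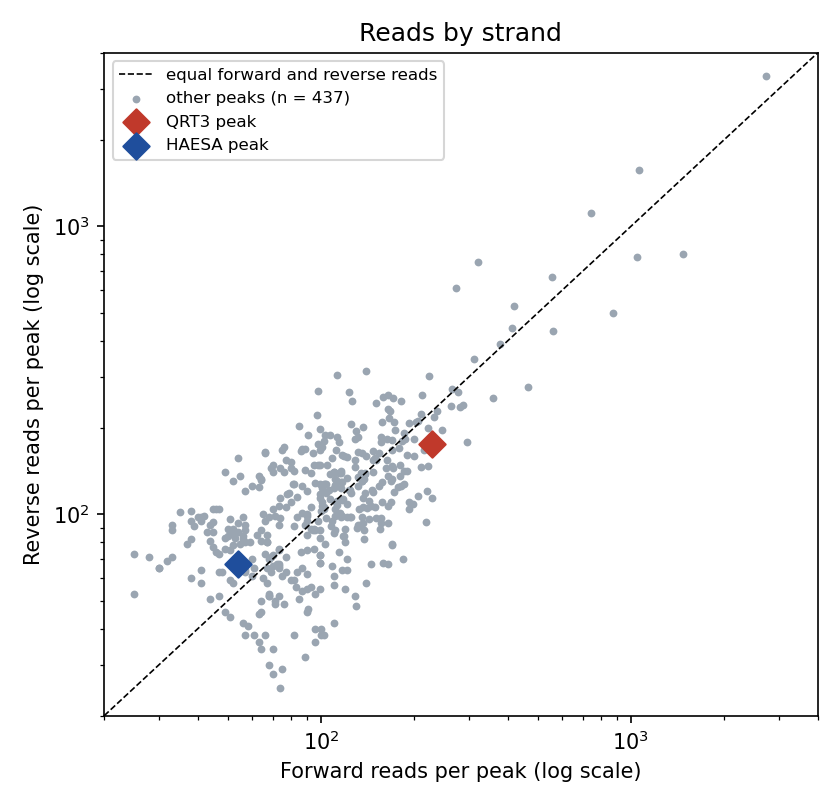
Forward against reverse reads per peak (both on log scales), with 1 grey point per other peak, diamonds for both genes and a dashed line at equal counts. QRT3 (228 forward, 175 reverse) lies below the line and HAESA (54 forward, 67 reverse) above it, both among the other points.

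The FDR of each gene was shared with other peaks, since the list holds 101 distinct FDR values for 439 peaks. The value of HAESA was found in 14 other peaks. Of these, 7 also held exactly 121 reads, and they were all the other peaks with that total. A further 5 held 178 to 230 reads, but 121 of them on 1 strand. The remaining ones were on AT5G36980, with 122 reads, and on AT3G25290, with 197. HAESA therefore had the lowest read total found at its FDR, together with the 7 peaks of equal reads.

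QRT3 shared its FDR with 1 other peak, on AT2G17033. That peak held 228 reads in all, 106 forward and 122 reverse, and 228 was also the forward count of QRT3. The FDR of QRT3 lay toward the high side of peaks with like read totals. Of the 27 other peaks within 10% of its 403 reads, from 363 to 441, 20 had a lower FDR and 7 a higher one, with a median of 0.0870%. On protein-coding genes the same range held 16 peaks, of which 13 had a lower FDR. In the whole list 106 peaks held fewer reads than QRT3 and yet had a lower FDR. For HAESA there were 2 such peaks. The authors' way of computing the FDR is unknown here, and what ties it to a strand count was not tested.

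The peaks most like each gene were taken as the 3 on other protein-coding genes with the nearest read total. For QRT3 these were on ERF3 (AT1G50640, a repressor of the ethylene response factor family), AT3G01270 and AT5G41685, with 397, 395 and 412 reads. Their FDRs were 0.123%, 0.0627% and 0.128%, each lower than that of QRT3. None of them leaned to the forward strand as QRT3 did: forward shares were 41.6%, 38.2% and 49.3%. For HAESA 5 such peaks had equal reads, and the 3 nearest to it in length were on cpHsc70-1 (AT4G24280, a chloroplast chaperone gene), TRFL5 (AT1G15720) and RNL (AT1G07910, a tRNA ligase gene), all with 121 reads and an FDR of 2.40%, as had the other two. Their lengths were 71, 33 and 80 bp and their forward shares 58.7%, 49.6% and 43.8%. RNL, with 53 forward and 68 reverse reads, had nearly the strand counts of HAESA. The tied peaks set aside by length leaned further to 1 strand: AT1G78400 (20 bp) had 33 forward and 88 reverse reads, and UBP27 (AT4G39370, 18 bp) had 89 forward and 32 reverse. The likeness rests on 1 number from 1 list and says nothing of shared function.

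Along chromosome 4, the peaks were 3229367 bp apart, with 7 other peaks between them. The nearest peaks to QRT3 were 280572 bp away on AT4G19380 (267 reads, FDR 1.59%) and 414944 bp away at a place with no named gene (350 reads, FDR 0.403%). The nearest to HAESA were 522251 bp away on the RNA-binding protein gene ATRBP45C (AT4G27000, 292 reads, FDR 0.0114%) and 145517 bp away on AT4G28811 (139 reads, FDR 1.19%). QRT3 held more reads than both of its neighbours and HAESA fewer than both of its own. The median gap between adjacent peaks of the chromosome was 199173.5 bp over 62 gaps, so 3 of these 4 gaps were longer than the median.

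**Figure D3:**
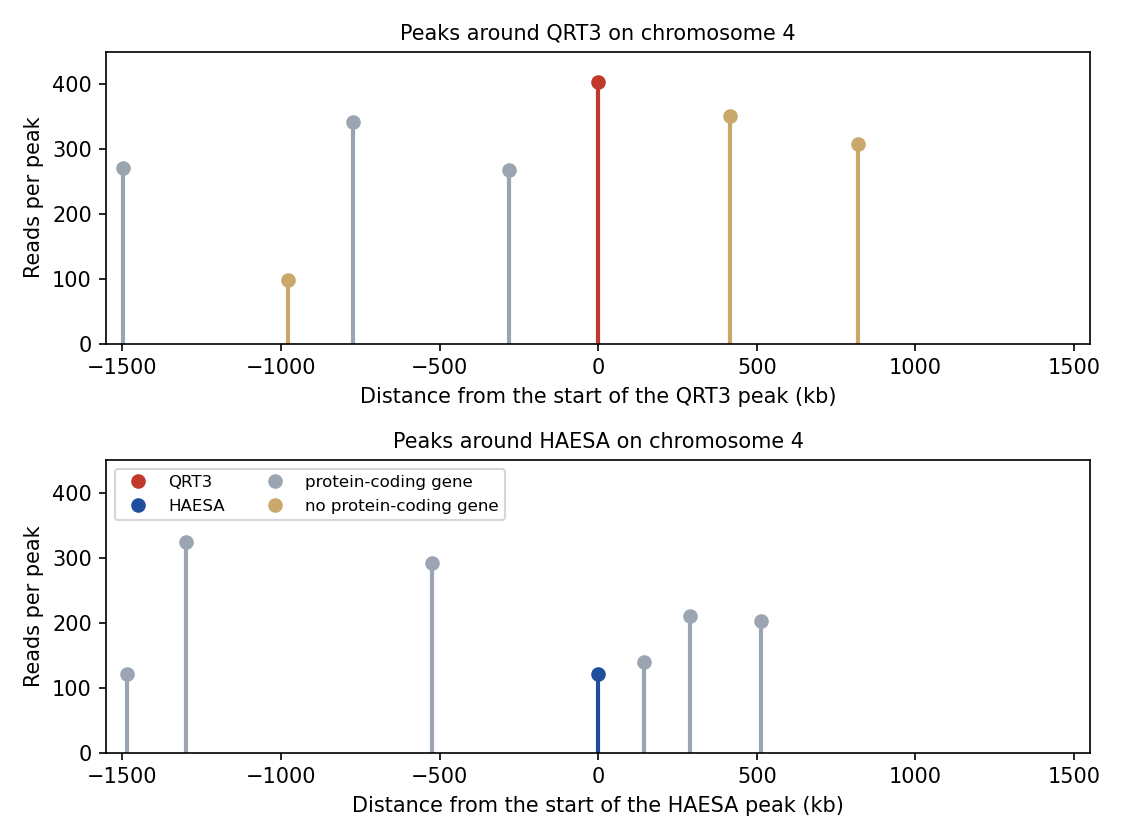
Reads of each chromosome 4 peak against its distance in kb from the start of the QRT3 peak (top) and the HAESA peak (bottom), within 1500 kb on each side. QRT3 holds more reads than the 6 other peaks of its window (99 to 350), and none of the 6 others around HAESA holds fewer than its 121 (121 to 324).

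No adjoining gene shared either peak. The overlap cell of QRT3 names QRT3 alone, 5 times, and that of HAESA names HAE alone, 3 times. Among the 291 peaks on protein-coding genes, 224 had gene names 3 times and 41 had them 5 times. In the RefSeq gene table QRT3 has 7 transcripts and a length of 4306 bp, and HAESA has 1 transcript and 3782 bp. The peak lengths equal 1.02% and 1.48% of these gene lengths, whether or not the whole peak lies inside the gene. The overlap cell of QRT3 also lacks the words "ChIP peak", as in 14 of the 291 peaks, and that of HAESA has them. Strand, exons, introns and untranslated regions are not in the list, so where in each gene the peak lay was not determined.

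In that table QRT3 lies between AT4G20040 and EMB1895 (AT4G20060), and HAESA between DMP7 (AT4G28485) and NAC073 (AT4G28500), a NAC gene linked to secondary cell walls. None of these 4 genes, nor the next 2 genes on each side, was named in the overlap column of any peak. That column named 1.05% of all nuclear protein-coding genes, and the nearest other peak to either gene was 145517 bp away. Nothing is therefore read from this absence. The list's own neighbour columns do not give adjoining genes for these peaks. For QRT3 they name AT4G16475 at 1560731 bp and AT4G28030 at 3087135 bp. For HAESA they name AT4G28025 at 142399 bp and AT4G33920 at 2180699 bp. The first pair is listed for 12 peaks and the second for 6, and 316 of the 439 peaks have a listed neighbour more than 20000 bp away.

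How many genes of cell separation lay under peaks was read from a list of 41 genes, all of them found in the RefSeq table. The list pools organ shedding, fruit opening and pollen separation and is not a pathway. Only HAESA and QRT3 were overlapped, 2 of 41 (4.88%), beside 1.05% of the 27444 nuclear protein-coding genes. Since these genes were picked for their peaks, nothing is read from that share. Of the other 39 genes 0 were overlapped, which allows a share of up to 9.03% (upper limit of the exact 95% binomial interval), far above 1.05%. Among 3 receptors of the HAESA family, HSL1 and HSL2 were not overlapped. Neither were the ligand gene IDA, the 3 SERK co-receptor genes (SERK1, SERK2 and BAK1), the 2 genes of receptor modulators (SOBIR1 and CST), the membrane traffic gene NEV or the 4 genes of the MAP kinase cascade (MKK4, MKK5, MPK3 and MPK6). Among 4 polygalacturonase genes, QRT2, ADPG1 and ADPG2 were not overlapped. The pectin methylesterase gene QRT1, which acts in the same separation of pollen as QRT3, the mannanase gene MAN7 and the xyloglucan gene XTH28 were not either. The same held for 9 transcription factors tied to abscission, among them KNAT1 and AGL15, for the abscission zone genes BOP1 and BOP2, and for 9 factors of fruit opening, among them IND, SHP1 and the NAC genes NST1 and NST3. None of the 41 was listed as a neighbour within 3000 bp of a peak without being overlapped. Promoters were not scored and the neighbour columns are incomplete, so absence of ATAF1-HA near these genes was not shown.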

How the data were processed

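The authors deposited 1 peak list for a tagged and an untagged library of rosette chromatin. Its coordinates are on TAIR 9, per the submitters' processing notes. Not given in the sources used here are the aligner, the peak caller and whether the wild-type library served as control. Forward, reverse and total reads per peak are counts, per the file headers. The deposited FDR is a percent, the deposited normalized difference is a fraction (called strand imbalance here), and the deposited p-value lies between 0 and 1, its test not stated. Forward and reverse reads summed to the total, and length was end minus start, in all 439 peaks.

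From these values, 177 continuation lines of annotation text were joined, and gene names were looked up by locus, symbol or synonym on the peak's chromosome in a RefSeq table of assembly TAIR10.1 (352 of 354 loci matched). The table gave gene order and gene lengths, but its coordinates were not compared with those of the peaks, and no sequence was used. Places among the other peaks and forward shares have exact (Clopper-Pearson) 95% binomial intervals. For places these are a yardstick only, since the other peaks are the whole list. Genes named were both members, genes of their overlap and neighbour columns and beside them in the table, members of the 41-gene list, the 3 peaks nearest in reads (ties by length, then forward share) and the flanking peaks. Genes that shared an FDR with a member, and those adjoining it in the table, were added after the values were seen. Members and lists were chosen with earlier results of these data known. Alternatives were other reference sets of peaks, reads per base, and genes within 1000 or 3000 bp. The reading of the list was tested on simulated data. Tools were Python 3.11.15 with SciPy 1.17.1, statsmodels 0.14.6, NumPy 2.4.6 and Matplotlib 3.10.9.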

Additional observations from a re-analysis of the deposited data

How the results depend on the processing

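Each place of a gene among the peaks was recomputed over other reference sets, and 23 of the 38 alternative values stayed within the interval of the main value, or, for the count of list genes, within 1.5 times it. Among peaks on protein-coding genes, 94.8% held fewer reads than QRT3. On chromosome 4 alone, 3.23% held fewer reads than HAESA, 11.3% had a higher FDR and 75.8% were shorter, and a smaller strand imbalance was found in 46.8% for QRT3 and 41.9% for HAESA. Among peaks with an FDR under 1%, fewer reads were found in 84.0% for QRT3 and 0.885% for HAESA, a higher FDR in 38.2% and 0.0%, and a smaller imbalance in 47.6% and 39.4%. That set leaves out peaks by FDR, which sets HAESA last by construction, and it left 1 of the 41 list genes overlapped, QRT3. By reads per base of listed length, which is not a read density, 74.9% of peaks were below QRT3 and 12.8% below HAESA. QRT3 stayed above most peaks by reads and HAESA below most under every alternative run. For the other moves the cause was not tested. The forward shares had no alternative. No paired analysis was possible because there was 1 library of each genotype. Library depth is unknown. With 121 reads the counting interval of the HAESA forward share is already as wide as 35.6 to 53.9%, and it leaves out any spread between libraries.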

Other observations

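The tie between FDR and strand counts seen at both genes was counted over the list, after it had been seen. In 225 of the 439 peaks the FDR was shared with another peak of the same read total, as for HAESA. In another 91 it was not, but was shared with a peak whose total equalled the forward or the reverse count, as for QRT3. Among the 27 peaks nearest to QRT3 in reads, 12 shared their FDR with a peak whose total was one of their strand counts and 2 with a peak of equal total. Read totals alone therefore do not order these peaks by FDR. More forward than reverse reads, as at QRT3, were found in 199 of the 439 peaks (45.3%, exact 95% binomial interval 40.6 to 50.1).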
